A study of Mus musculus with 15 samples.

Results

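The genes described here are 10 mouse Trmt genes, named for enzymes that methylate transfer RNA (tRNA): Trmt61a, Trmt6, Trmt61b, Trmt1, Trmt5, Trmt10a, Trmt10c, Trmt11, Trmt12 and Trmt2a. They were found by gene symbol among the 38924 genes of the deposited tables, and all 10 were among the 14967 genes tested. Trmt61a was chosen because it had the lowest p for diet in CD45hi cells of these same libraries, so it was chosen by its measured CD45hi levels, and these are a description and are given without a test. The other 9 genes were added as its partner and its relatives.

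RNA-seq was run on CD11b+ myeloid cells sorted by flow cytometry from the brains of wild type C57BL/6J mice, 12 months old, that had eaten a control chow diet (CD) or a western diet (WD), an obesogenic feed. CD11b marks myeloid cells, and the level of CD45, a surface protein of white blood cells, split them into CD45lo cells, the gate of resident microglia, and CD45hi cells, the gate that holds infiltrating and other myeloid cells. Libraries numbered 4 from CD-fed CD45hi cells, 3 from WD-fed CD45hi cells, 4 from CD-fed CD45lo cells and 4 from WD-fed CD45lo cells. The study describes its deposited counts as given per animal, but which CD45hi and CD45lo libraries came from the same mouse is not given in the sources used here. The gate is not a lineage label.

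Transfer RNAs are methylated at many bases after transcription, and most of these marks are laid down by an enzyme that recognises 1 position. The marks hold the folded tRNA together or keep the anticodon in frame, and unmodified tRNAs can be degraded. Trmt61a is the catalytic subunit and Trmt6 the non-catalytic, tRNA-binding subunit of the enzyme that makes 1-methyladenosine in the T loop of cytosolic tRNAs, and the complex needs both. The enzyme named TRMT61B makes the same mark in mitochondria, but the mouse record counted here as Trmt61b (ENSMUSG00000085492) is annotated as an antisense, non-coding gene in GENCODE and as a long non-coding RNA in RefSeq. The other 9 records are annotated as protein-coding. Trmt10c acts there too, as a subunit of the mitochondrial complex that also processes tRNA ends. Trmt1, Trmt5, Trmt10a and Trmt11 methylate guanosines, Trmt2a makes methyluridine, and Trmt12 takes part in the synthesis of wybutosine, a bulky base next to the anticodon of phenylalanine tRNA.

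Trmt61a lies on the forward strand at chr12:111678105-111683902 (mm10) and Trmt6 on the reverse strand at chr2:132804207-132816055, so the subunits are encoded on different chromosomes. The other genes lie at chr17:71557027-71598755 (Trmt61b), chr8:84686307-84699808 (Trmt1), chr12:73280011-73286710 (Trmt5), chr3:138143448-138159821 (Trmt10a), chr16:56032609-56037819 (Trmt10c), chr10:30534225-30600749 (Trmt11), chr15:58872674-58877127 (Trmt12) and chr16:18248679-18254772 (Trmt2a). The stretch before the annotated start of Trmt61a is shown because its RNA level is the one the description turns on. It is the RefSeq sequence of the forward strand at chr12:111677855-111678104 in GRCm38.p6, 5′ to 3′, and the capitals mark a match to TGACGTCA, the palindromic cAMP response element.

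Trmt61a promoter: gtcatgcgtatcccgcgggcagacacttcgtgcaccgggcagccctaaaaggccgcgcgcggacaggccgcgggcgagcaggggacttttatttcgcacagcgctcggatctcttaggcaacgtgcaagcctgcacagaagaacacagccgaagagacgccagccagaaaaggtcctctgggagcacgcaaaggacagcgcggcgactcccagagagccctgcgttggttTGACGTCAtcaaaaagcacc

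The first base of the match lay 20 bases before the annotated start. The 8 letters, which read the same on both strands, were searched after this sequence had been seen. They occurred in 588 of 32851 RefSeq mouse promoters (1.79%), taken as 250 bases before to 50 bases after the start. Of the 10 genes, 7 had a promoter in that table, and Trmt61a and Trmt5 held the letters. A match is a description of the sequence and was not tested against binding or expression.

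Total expected counts, the fractional read counts that the RSEM program assigns to genes, ranged from 11951412 to 17912272 per library, and 3 counts corresponded to 0.156 to 0.282 cpm, counts scaled to a common library size. CD45hi libraries detected 14072 to 15477 genes and CD45lo libraries 16004 to 17864. The summed level of 5 microglial markers was 4598 to 5637 cpm in CD45hi and 9720.2 to 12240.4 cpm in CD45lo libraries, that of 5 neutrophil markers 360.3 to 1837 and 25.1 to 283 cpm, and that of 4 border macrophage markers 513 to 2259.7 and 51.1 to 200.3 cpm. That of 4 monocyte markers was 297 to 749.9 and 39.9 to 130.4 cpm, and that of 3 oligodendrocyte markers 88.7 to 213 and 58.4 to 96.0 cpm. The sum of 4 general myeloid markers was 5424 to 7451 cpm in all 15 libraries, and the T cell genes Cd3e and Cd3g had no count in WD-fed CD45hi or in any CD45lo library. The second principal component set WD CD45hi library 1 (-134.7) and CD CD45hi library 4 (93.0) apart from the other 5 CD45hi libraries (6.1 to 21.5). Estimates without both are given for some of the results only. In such sorted bulk samples, fewer cells of a type and less RNA per cell cannot be told apart.

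Trmt61a transcripts were nearly missing from CD45hi cells of WD-fed mice, while Trmt6, its obligate partner, varied widely and overlapped between the diets. In the CD-fed CD45hi libraries, Trmt61a was at 56.4, 30.6, 41.3 and 20.7 cpm after TMM normalization, which scales libraries to each other. In the WD-fed CD45hi libraries it was at 0.0941, 0.604 and 1.15 cpm, from 1, 9 and 15 counts. The WD-fed libraries all lay below the lowest CD-fed library, and the first was below 3 counts. The fitted log2 fold change was -5.87 (SE 0.673), or -5.6 without both libraries that stand apart. This SE uses a spread estimate shared by all 4 groups. The SD of log2 Trmt61a cpm was 0.94 in CD45hi and 0.42 in CD45lo cells, so the SE can be too small for CD45hi cells. Of the 14967 genes tested, 329, Trmt61a included, had an estimate this low or lower. The gene next in order of p was Smim13, at 10.2 cpm with CD and 107 cpm with WD.

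Marker levels also differed among these CD45hi libraries. The border macrophage sum was 1605 to 1796 cpm with CD and 513, 2259.7 and 1521 cpm with WD, and the neutrophil sum was 600.4 to 1837 cpm with CD and 360.3 to 923 cpm with WD. The microglial sum was 4598 to 5517 cpm with CD and 5322 to 5637 cpm with WD. That of the monocyte markers was 297 to 749.9 cpm with CD and 367 to 453 cpm with WD. The part of cell composition in the Trmt61a levels was not tested.

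CD45lo cells, which the choice of Trmt61a did not use, showed no such pattern. With CD the 4 libraries held 18.6, 18.2, 33.7 and 39.4 cpm, and with WD 26.2, 25.0, 32.3 and 27.4 cpm. The WD values all fell inside the CD range. The log2 fold change was 0.01 (SE 0.465, 2-SE interval -0.92 to 0.94, edgeR quasi-likelihood FDR 1), so a change of about the size seen in CD45hi cells lay outside the interval.

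**Figure D1:**
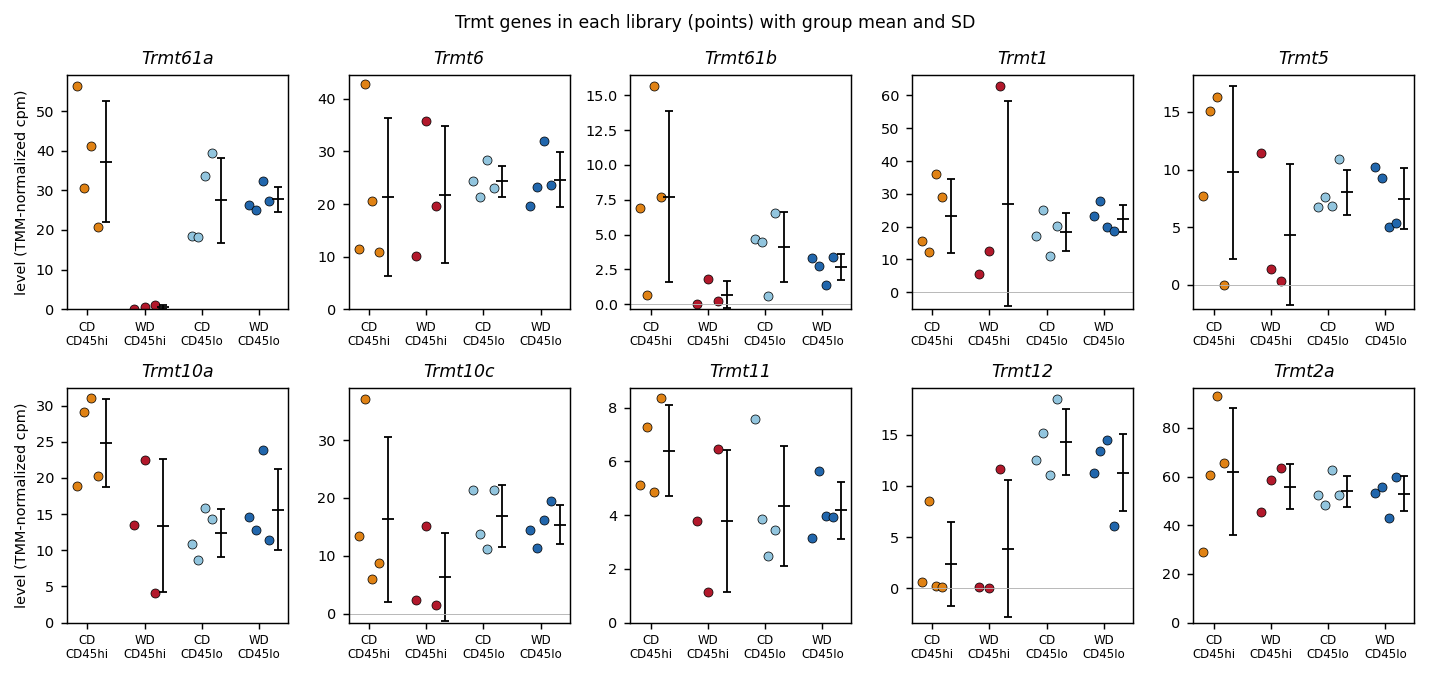
Level of each of the 10 Trmt genes in TMM-normalized cpm (vertical axes, linear, each with its own range) in the 15 libraries, by diet and CD45 level (horizontal axes). Points are libraries and black bars the group mean and SD (n = 4, 3, 4 and 4), and the 3 WD CD45hi libraries sit at 0.0941 to 1.15 cpm for Trmt61a but at 10.2 to 35.8 cpm for Trmt6.

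Trmt6 was at 11.4, 42.8, 20.6 and 10.8 cpm in CD-fed CD45hi cells and at 10.2, 35.8 and 19.6 cpm in WD-fed CD45hi cells. These ranges overlapped almost entirely. Its log2 fold change was 0.03 (SE 0.499, 2-SE interval -0.97 to 1.03, edgeR FDR 0.986), and 0.15 without both libraries that stand apart. The interval does not show equal levels. It rests on a spread estimate shared by all 4 groups, while the SD of log2 Trmt6 cpm was 0.91 in CD45hi and 0.24 in CD45lo cells. It can thus be too narrow for CD45hi cells, and changes larger than about 1 on the log2 scale are not firmly left out. In CD45lo cells Trmt6 held 21.3 to 28.3 cpm with CD and 19.6 to 32.0 cpm with WD, and the fitted difference was 0.02 (SE 0.461, edgeR FDR 1). The diet difference of Trmt6 did not itself differ detectably between CD45hi and CD45lo cells (0.01 on the log2 scale, SE 0.680, edgeR FDR 1).

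The proportion of the subunits can be compared per transcript length, in TPM, a level that RSEM divides by length and scales to a common total. The ratio of Trmt61a to Trmt6 TPM was 4.84, 0.950, 0.488 and 1.67 in CD-fed CD45hi libraries and 0.00318, 0.0133 and 0.0793 in WD-fed CD45hi libraries, which is a description that follows from how Trmt61a was chosen. In CD45lo cells the ratio was 0.924, 0.941, 0.845 and 1.76 with CD and 1.66, 1.12, 1.30 and 1.5 with WD. The libraries of the diets overlapped, and all 8 ratios lay between 0.845 and 1.76. WD and CD differed there by 0.37 in mean log2 ratio (exact two-sided permutation test, n = 4 and 4, p = 0.229, where the smallest possible p is 0.0286). The overlap rested on CD CD45lo library 4, without which the difference was 0.61 (exact permutation p = 0.0571, the smallest that 3 against 4 libraries allow). On the cpm scale the difference was 0.09 (exact permutation p = 0.800).

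**Figure D2:**
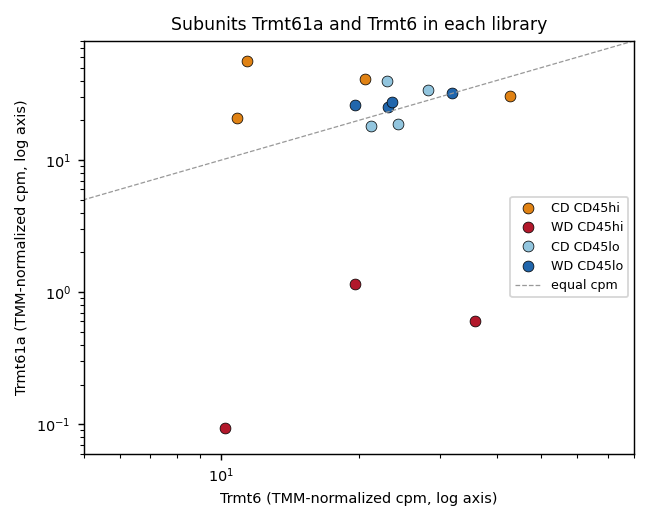
Trmt61a (vertical axis) against Trmt6 (horizontal axis) in TMM-normalized cpm, both on log axes, with 1 point per library coloured by group and a dashed line at equal cpm. The 3 WD CD45hi libraries lie far below the line at Trmt6 levels of 10.2 to 35.8 cpm, and the other 12 libraries lie near or above it.

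The lengths that RSEM estimated enter the TPM values. Trmt61a has annotated transcripts of 2433, 2131, 601 and 491 exonic bases. Its estimated length was 2131 bases in 3 CD-fed and all 3 WD-fed CD45hi libraries. In WD-fed CD45hi cells this estimate rests on very few reads, so it does not show which transcript was present there. In 1 CD-fed CD45hi library and 1 WD-fed CD45lo library it was 2433 bases. For Trmt6 the estimate ranged from 641.23 to 3097.71 bases, and in CD CD45hi library 3, with the shortest, 20.6 cpm became 59.8 TPM.

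Trmt61b, named for the mitochondrial counterpart of Trmt61a but annotated as non-coding, had the lowest estimate of the 9 for diet in CD45hi cells, and the test did not call it. Its values are those of this non-coding record. It was at 6.88, 0.662, 15.7 and 7.72 cpm with CD and at 0, 1.81 and 0.230 cpm with WD. CD library 2 lay below the highest WD library, so the groups overlapped. The log2 fold change was -3.47 (SE 1.30, 2-SE interval -6.07 to -0.87, edgeR FDR 0.185). It passed only with DESeq2 (FDR 0.0295), which called 6.88% of all genes, and over all alternatives the adjusted p ranged from 0.0295 to 0.735. In CD45lo cells it was at 4.71, 4.46, 0.615 and 6.58 cpm with CD and 3.28, 2.75, 1.37 and 3.41 cpm with WD (log2 fold change -0.60, SE 1.05, edgeR FDR 1). Its diet difference in CD45hi minus that in CD45lo cells was -2.87 (SE 1.60, edgeR FDR 0.574). Of its exonic bases, 402 (13.9%) overlap Spdya on the opposite strand, and Spdya was at 0 to 0.379 cpm in CD45lo and 0 to 0.0655 cpm in CD45hi libraries.

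Trmt10c, a subunit of the mitochondrial tRNA processing complex, was at 13.5, 37.1, 5.98 and 8.82 cpm in CD-fed and at 2.45, 15.1 and 1.46 cpm in WD-fed CD45hi cells. WD library 2 overlapped the CD range and the other two lay below it. The log2 fold change was -1.36 (SE 0.755, edgeR FDR 0.365), and without WD CD45hi library 2 it was -3.06 (edgeR FDR 0.0522). Its partners in the complex gave 0.37 (SE 0.714) for Hsd17b10 and -0.45 (SE 0.911) for Prorp, with edgeR FDR 0.838 and 0.846. In CD45lo cells Trmt10c held 11.1 to 21.4 cpm with CD and 11.4 to 19.4 cpm with WD.

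Trmt5, which methylates the guanosine beside the anticodon, had the largest spread among CD45hi libraries. With CD it was at 7.73, 15.1, 16.3 and 0 cpm, and with WD at 11.4, 1.34 and 0.307 cpm. The CD library without a count and the highest WD library are the same 2 libraries that stood apart on the second principal component. The log2 fold change was -1.17 (SE 1.21, edgeR FDR 0.658) with all libraries and -3.96 (edgeR FDR 0.0283) without both, where 1.89% of all genes passed, so the call depended on them. In CD45lo cells it held 6.77 to 10.9 cpm with CD and 5.05 to 10.2 cpm with WD.

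Trmt1, which makes dimethylguanosine, was at 15.7, 12.3, 36.1 and 29.1 cpm in CD-fed and at 5.46, 12.7 and 63.0 cpm in WD-fed CD45hi cells. The WD libraries held both the lowest and the highest value of the gene. Its log2 fold change was 0.22 (SE 0.623, edgeR FDR 0.904), and -1.36 without WD CD45hi library 3.

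Trmt10a, which makes methylguanosine in cytosolic tRNAs, was at 18.9, 29.1, 31.1 and 20.3 cpm with CD and 13.5, 22.5 and 4.14 cpm with WD in CD45hi cells (log2 fold change -0.89, SE 0.522, edgeR FDR 0.392). The groups overlapped through WD library 2 alone. Trmt11, which forms methylguanosine together with Trmt112, held 4.84 to 8.37 cpm with CD and 1.14 to 6.44 cpm with WD, and its fitted log2 difference was -0.76 (SE 0.713, edgeR FDR 0.622). Its partner Trmt112 gave -0.49 (SE 0.895, edgeR FDR 0.823).

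Trmt2a, the methyluridine enzyme, had the smallest spread and the highest median TPM of the 10 genes. It was at 29.0, 60.7, 93.3 and 65.5 cpm in CD-fed and at 45.6, 58.5 and 63.6 cpm in WD-fed CD45hi cells, all WD libraries inside the CD range. The log2 fold change was -0.15 (SE 0.313, 2-SE interval -0.78 to 0.47, edgeR FDR 0.850). Of its exonic bases 825 (15.5%) overlap Dgcr8 on the opposite strand. The study ran RSEM at its default parameters, which take no strand into account, so reads in such overlaps cannot be told apart between the genes.

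Trmt12, the wybutosine gene, showed a pattern of its own, with most CD45hi libraries near 0 on either diet. Counts were 9, 103, 3 and 2 in CD-fed and 1, 0 and 151 in WD-fed CD45hi libraries. In CD45lo cells they were 213, 292, 181 and 326 with CD and 173, 180, 265 and 80 with WD. Of the 7 CD45hi libraries, 5 thus held 9 counts or fewer, while every CD45lo library held 80 or more. The diet difference in CD45hi cells (0.72, SE 1.39, edgeR FDR 0.838) turned from -5.58 without WD library 3 to 3.53 without CD library 2.

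Among the 9 genes other than Trmt61a, 0 passed FDR 0.05 for diet in CD45hi cells with edgeR, against 0.254% of all genes tested, and 0 had libraries of the diets that did not overlap, against 5.77% of all genes. At an unadjusted p under 0.05 there was 1, Trmt61b, against 17.6% of all genes. DESeq2, which called 6.88% of all genes, called Trmt61b, and limma-voom, which called 0.18%, called none of the 9. Their median log2 fold change was -0.76, with 3 estimates above and 6 below 0. Over all genes the median was -0.02, with 7265 estimates above and 7622 below 0. The 2-SE intervals of Trmt61b, Trmt5, Trmt10c, Trmt11 and Trmt12 were wide enough to hold a change of 2 on the log2 scale. Those of Trmt6 and Trmt2a were narrower. All these intervals use a spread shared with the CD45lo libraries, which varied less, so they can be too narrow for CD45hi cells. The diet difference itself differed between CD45hi and CD45lo cells for 0 of the 9 genes with edgeR (0.00668% of all genes), and 0 had an unadjusted p under 0.05 (10.1% of all genes). DESeq2 and limma-voom, which called 188 and 0 of all 14967 genes there, also called 0 of the 9.

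For diet in CD45lo cells, 0 of the 10 genes and 0% of all genes passed with edgeR, and 0 of the 9 other than Trmt61a had an unadjusted p under 0.05 (0.822% of all genes) or libraries that did not overlap (2.42% of all genes). DESeq2 and limma-voom, which called 4 and 0 of all 14967 genes, likewise called 0 of the 10. Estimates ran from -0.60 for Trmt61b to 0.33 for Trmt10a, with a median of -0.04 over the 10 genes and 0 over all genes.

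**Figure D3:**
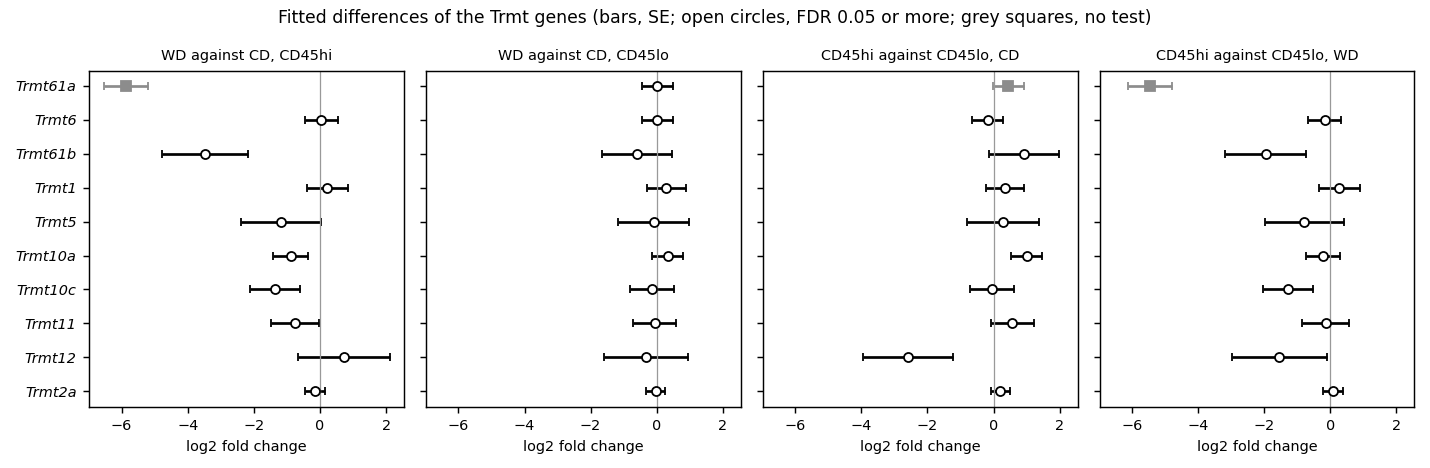
Fitted log2 fold changes of the 10 genes (horizontal axis, bars SE) in the 4 comparisons of diet and CD45 level. Open circles mark FDR of 0.05 or more and grey squares mark Trmt61a where CD45hi libraries enter, which is given without a test; Trmt61a lies at -5.87 and -5.45, and all other genes are open circles.

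CD45hi and CD45lo cells were compared within each diet, with a test that asks for more than a 1.5-fold difference. With CD, 0 of the 9 genes other than Trmt61a passed with edgeR, against 3.98% of all genes, and 0 had an unadjusted p under 0.05 (14% of all genes). DESeq2 and limma-voom, which called 668 and 542 of all 14967 genes, also called 0 of the 9. Libraries did not overlap for 2 of the 9, against 16.5% of all genes. Trmt10a was at 18.9 to 31.1 cpm in CD45hi and 8.61 to 15.9 cpm in CD45lo cells (log2 fold change 1.00, SE 0.477, edgeR FDR 0.523). Its exons overlap those of Mttp on the opposite strand over 457 bases (5.73%), and Mttp ranged from 0.166 to 25.5 cpm in CD45hi libraries. Trmt12 was at 0.129 to 8.53 cpm in CD45hi and 11.1 to 18.5 cpm in CD45lo cells (log2 fold change -2.59, SE 1.36, edgeR FDR 0.471). Without CD CD45hi library 2 the Trmt12 estimate was -5.41 (edgeR FDR 0.0615). Trmt61a itself was at 20.7 to 56.4 and 18.2 to 39.4 cpm, a fitted log2 difference of 0.44 (SE 0.466).

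With WD, 0 of the 9 genes passed, against 5.18% of all genes, 0 had an unadjusted p under 0.05 (17.9% of all genes), and 0 had libraries that did not overlap (23.4% of all genes). Trmt61a was at 0.0941 to 1.15 cpm in CD45hi and at 25.0 to 32.3 cpm in CD45lo cells (log2 fold change -5.45, SE 0.660). The WD-fed CD45hi libraries are the same ones as in the diet comparison, so this is no separate observation. Trmt61b gave -1.95 (SE 1.22, edgeR FDR 0.486), Trmt12 -1.54 (SE 1.44, edgeR FDR 0.720) and Trmt10c -1.27 (SE 0.752, edgeR FDR 0.491). The set of calls changed with single libraries. Without WD CD45hi library 2, Trmt10c passed (-2.98, edgeR FDR 0.0389, where 5.55% of all genes passed), and without library 3, Trmt12 passed (-7.84, edgeR FDR 0.0236, where 5.89% passed). Without both libraries that stand apart, Trmt5 passed (-3.16, edgeR FDR 0.0227, where 6.88% passed).

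The 10 genes varied more between CD45hi than between CD45lo libraries of a group. The SD of log2 cpm within groups, pooled over diets, was larger in CD45hi cells for 10 of 10 genes, as it was for 90.6% of all genes tested. The median over the 10 genes was 1.1 in CD45hi and 0.42 in CD45lo cells, beside 1.06 and 0.41 over all genes. Trmt5 (2.97 and 0.43) and Trmt12 (2.83 and 0.46) had the widest gap between the cell types, and Trmt2a (0.57 and 0.19) the lowest SD in both.

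**Figure D4:**
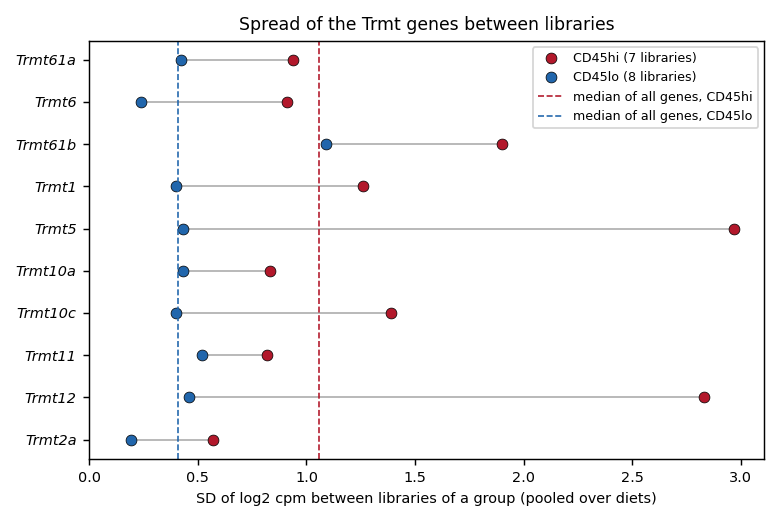
SD of log2 cpm between libraries of the same group, pooled over diets (horizontal axis), for each Trmt gene, in CD45hi (red, 7 libraries) and CD45lo cells (blue, 8 libraries). Dashed lines are the medians over all genes tested (1.06 and 0.41), and every gene has its red point to the right of its blue point.

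Values of 3 counts or fewer occurred only in CD45hi libraries for these genes. Trmt12, Trmt5, Trmt61a and Trmt61b had such a value in at least 1 CD45hi library, with 8 such values in all, and none of the 10 genes had one in CD45lo libraries. Among all genes tested, 34.1% had such a value in some CD45hi library and 18.6% in some CD45lo library. WD CD45hi library 1 held 3 of the 8 values, and 19.4% of all genes tested were at 3 counts or fewer in it, the largest share of any library. The part of library quality or input in these values was not tested.

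Levels between genes were compared per length, in CD45lo cells, where the spread was smaller. Median TPM over the 8 CD45lo libraries was 43.8 for Trmt2a, 31.5 for Trmt1, 25.6 for Trmt61a, 20.8 for Trmt6, 11.8 for Trmt10a, 10.4 for Trmt10c, 8.91 for Trmt5, 8.44 for Trmt61b, 6.31 for Trmt12 and 3.19 for Trmt11. No gene was separated from the next in this order by its range over libraries. In CD-fed cells the mean TPM of Trmt61a was 25.8 ± 11.7 (SD, n = 4) in CD45hi and 26.2 ± 10.8 in CD45lo libraries. That of Trmt6 was 24.8 ± 24.6 and 24.0 ± 8.75. The Trmt6 mean in CD45hi cells was raised by library 3, at 59.8 TPM with the shortest length estimate. The means thus do not show equal Trmt6 levels.

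Covariation with Trmt61a was examined over the 8 CD45lo libraries, which hold both diets. Trmt6 gave a Pearson r of 0.41 (exact permutation p = 0.317) and a Spearman rho of 0.33 (p = 0.428), and r was 0.51 without the 2 libraries farthest from the median of Trmt61a. Trmt10a gave the highest r, 0.72 (exact permutation p = 0.0431; rho 0.74, p = 0.0458), and the same 0.72 without those 2 libraries. Trmt11 gave the lowest, -0.61 (exact permutation p = 0.103; rho -0.50, p = 0.216), and -0.85 without them. Trmt61b went from -0.35 (exact permutation p = 0.404; rho -0.21, p = 0.619) to -0.85 without the same 2 libraries. None of the 9 relations passed after adjustment over the 9 (adjusted permutation p of 0.388 for Trmt10a and 0.727 for Trmt6). All points share the TMM scaling and the sequencing depth of their library.

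Over all 15 libraries, the 5 genes whose centred log2 cpm profile was most like that of Trmt61a were Msantd2, Ddx59, Nup35, Srm and Dennd6b, with root mean square differences of 0.96, 0.96, 0.98, 1.01 and 1.01. In WD-fed CD45hi cells their highest library was at 1.99, 0.153, 0.997, 1.14 and 0.403 cpm. Of the Trmt genes, Trmt61b was the most alike, at 1.69 and rank 301 of 14966, followed by Trmt10c at 1.84 and rank 599, and Trmt6 was at 2.29 and rank 4842. These differences carry the CD45hi values that chose Trmt61a and are given without a test.

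A wider list of 33 other genes of tRNA methylation held 23 further methyltransferases, 7 partner subunits and 3 demethylases, of which 32 were tested. For diet in CD45hi cells 0 of the 32 passed with edgeR, where 0.254% of all genes did, and 7 had an unadjusted p under 0.05, where 17.6% of all genes did. Their median log2 fold changes were -0.34 for the methyltransferases, -0.45 for the partner subunits and -0.06 for the demethylases. Libraries of the diets did not overlap for 6 of the 32, beside 5.77% of all genes. In CD45lo cells 0 of the 32 passed for diet and 0 had an unadjusted p under 0.05, beside 0.822% of all genes. The 3 largest estimates in CD45hi cells were those of Wdr4, Trmt10b and Mettl6.

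Wdr4, the partner of the 7-methylguanosine enzyme Mettl1, was at 6.29, 14.2, 49.8 and 16 cpm in CD-fed and at 1.03, 1.34 and 3.30 cpm in WD-fed CD45hi cells. The groups did not overlap, and the log2 fold change was -3.50 (SE 0.745, edgeR FDR 0.0543). Trmt10b, a paralog of Trmt10a, was at 1.97, 2.57, 0.0880 and 11.4 cpm with CD and 38.6, 7.31 and 17.3 cpm with WD (log2 fold change 2.39, SE 0.948, edgeR FDR 0.209). The groups overlapped through CD library 4 alone, and WD library 1 held the highest value. Both are the libraries that stand apart, and no estimate without them is given for Trmt10b. Mettl6, which makes methylcytidine in serine tRNAs, held 8.69 to 37.3 cpm with CD and 0.939 to 15.3 cpm with WD (-1.77, SE 0.771, edgeR FDR 0.247).

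Thada, listed as a partner of the Ftsj1 methyltransferase, was the 1 gene of the 32 to pass the tests used here in any comparison, that of CD45hi with CD45lo cells on the WD, where 5.18% of all genes passed. It was at 26.1, 32.1 and 38.3 cpm in WD-fed CD45hi cells and at 92.7, 86.2, 76.6 and 92.2 cpm in WD-fed CD45lo cells (log2 fold change -1.43, SE 0.227, edgeR FDR 0.00641). All CD45hi values lay below all CD45lo values. With the 1.5-fold limit set after the test, which called 8.92% of all genes in that comparison, Wdr4 (-2.37, SE 0.706, edgeR FDR 0.0440) and Trmt1l (-1.14, SE 0.342, edgeR FDR 0.0460) passed as well. With CD, Thada was at 58.5 to 76.5 cpm in CD45hi and 63.2 to 86.1 cpm in CD45lo libraries, and its fitted log2 difference was -0.16 (SE 0.202, edgeR FDR 1). The difference between the diets' contrasts was -1.27 for Thada (SE 0.3, edgeR FDR 0.276). The comparisons of CD45hi cells share the 3 WD libraries, and WD-fed against CD-fed CD45hi cells gave -1.07 for Thada (SE 0.225, edgeR FDR 0.0543).

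**Figure D5:**
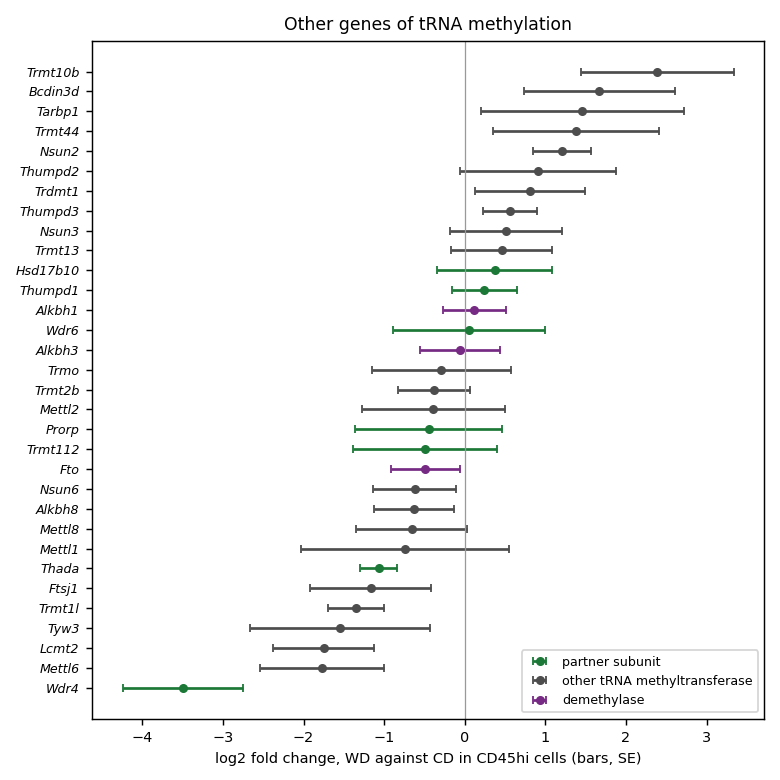
Log2 fold change of WD against CD in CD45hi cells (horizontal axis, bars SE) for the 32 tested genes of the wider list, ordered by estimate and coloured by kind. Wdr4 lies lowest at -3.50 and Trmt10b highest at 2.39, and none of the 32 passed FDR 0.05.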

How the data were processed

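Libraries were made from poly(A) RNA with the TruSeq RNA kit v2. Per the labels, the authors processed reads with bcl2fastq 2.18.0.12 and RSEM 1.2.12 on mm10 and deposited, per library, gene expected counts (estimated counts, not normalized) and TPM with estimated lengths. RSEM was run with Bowtie2 at default parameters, which do not use strand. The annotation release is not given in the sources used here.

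Expected counts were rounded, since RSEM splits reads shared between genes (4 of the 10 genes held fractional counts), which can move reads between similar genes. Genes reaching 1 cpm in 2 or more libraries entered the fit. TMM normalization and the earlier form of the edgeR 4.0.16 quasi-likelihood test were fitted in R 4.3.3 over all 15 libraries and 4 groups without covariates. FDR (Benjamini-Hochberg) was taken over all 14967 genes, with glmTreat at 1.5-fold between CD45 levels. Alternatives used DESeq2 1.42.0 and limma 3.58.1, other filters and scaling, replicate blocks, and left-out libraries. Exact permutation tests used scipy 1.17.1. Log2 cpm used a prior count of 2. On simulated data with 200 of 14967 genes changed 8-fold in WD CD45hi libraries, the test recovered 191 in the CD45hi diet comparison and called 5 unchanged genes. The changed genes were drawn from well expressed genes only, and each gene had the same spread in all libraries. The real median SD was 1.06 in CD45hi and 0.41 in CD45lo cells. The simulation thus checks the code and does not give the power for low genes or CD45hi cells.

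Library totals are given above, and floors of 3 counts cover counting error only. Replicates differed by 20.6 to 130.0 times sampling noise (chi-square per degree of freedom over 21 pairs). Promoters and list synonyms came from RefSeq (4 of the list genes were matched by synonym, and Trmt9b was not tested), coordinates from GENCODE M21. Named genes were the 10 genes, list genes past FDR 0.05 or among the 3 largest CD45hi diet estimates, and the 5 nearest profiles. The genes and lists were chosen with earlier results of these data known.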

Additional observations from a re-analysis of the deposited data

Results flagged for a closer look

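Trmt12 in CD-fed CD45hi cells had 1 library far from the others. Replicate 2 was at 8.53 cpm and the other 3 were at 0.590, 0.264 and 0.129 cpm, so the gap to the nearest took a share of 0.945 of the group's range. This was 1 such case in 30 checks of a gene in a group of 4 libraries. Chance was taken to flag about 1 in 20, a rate that was not checked for low, uneven counts such as these.

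The diet difference of Trmt61a differed between the cell types, by -5.88 on the log2 scale (SE 0.782). It was -5.87 in CD45hi and 0.01 in CD45lo cells. Trmt61a was chosen for the first of these values, so the difference is a description and is given without a test. With edgeR, 1515 of the 14967 genes tested (10.1%) had an unadjusted p under 0.05 for the interaction.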

How the results depend on the processing

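Of 1158 recomputed values of single genes, 1083 kept direction and side of the threshold, 5 newly passed it, 7 no longer passed it and 63 changed sign, all of the last from estimates that did not pass. The cause of a change was not tested unless stated. Counts of calls below include Trmt61a, whose own calls are no test because these values chose it. Leaving out both libraries that stand apart was chosen after seeing the data.

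For diet in CD45hi cells, 38 genes (9 higher, 29 lower) were called in the fit reported, 1030 with DESeq2 (423 higher, 607 lower, 2 of the 10 Trmt genes), 69 with 1 cpm in 4 libraries (27 higher, 42 lower), 30 without a filter (11 higher, 19 lower), 27 with limma-voom (17 higher, 10 lower, 10 of them among the 38), 252 with the edgeR 4 method (161 higher, 91 lower), 283 (116 higher, 167 lower, 2 Trmt genes) without both libraries that stand apart, 2 with a replicate block by title number and 0 (0 Trmt genes) in a fit of the compared groups only. In CD45lo cells DESeq2 called 4 genes. With a 1.5-fold limit set after the test, CD45hi against CD45lo calls were 1162 with CD and 1335 with WD, where 595 and 775 were reported, and with WD a block by file number gave 353. Without both libraries that stand apart, 2 Trmt genes were called with WD. For the interaction DESeq2 called 188 genes and the fit without both libraries 3. limma-voom, the edgeR 4 method and both replicate blocks called 0 genes and 0 Trmt genes, and so did leaving out CD CD45lo library 1 or 2.

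Leaving out 1 library at a time gave 1 (without WD CD45lo library 2) to 287 genes (without WD CD45hi library 2) for diet in CD45hi cells, 513 to 917 genes and 1 to 2 Trmt genes for the cell types with WD, and 0 to 6 genes and 0 to 1 Trmt gene for the interaction. Estimates that changed sign ranged, for diet in CD45hi cells, from -0.52 to 0.62 for Trmt6, -1.36 to 0.70 for Trmt1, -5.58 to 3.53 for Trmt12 and -0.39 to 0.11 for Trmt2a. For diet in CD45lo cells the ranges were -0.15 to 0.24 for Trmt61a, -0.13 to 0.12 for Trmt6, -0.29 to 0.08 for Trmt5, -0.25 to 0.36 for Trmt11 and -0.09 to 0.06 for Trmt2a. Between cell types with CD they were -0.77 to 0.04 for Trmt6, -0.08 to 0.70 for Trmt5, -0.84 to 0.23 for Trmt10c and -0.06 to 0.44 for Trmt2a. With WD they were -0.73 to 0.17 for Trmt6, -1.30 to 0.75 for Trmt1, -0.83 to 0.21 for Trmt10a, -0.77 to 0.29 for Trmt11 and -0.02 to 0.20 for Trmt2a. The interaction of Trmt6 ranged from -0.54 to 0.60.

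Sign changes elsewhere were, with limma-voom, Trmt1 -0.30, Trmt12 -0.90 and Trmt2a 0.01 for diet in CD45hi cells, Trmt11 0.03 for diet in CD45lo cells, Trmt5 -1.69 between cell types with CD and Trmt1 -0.36 with WD. limma-voom moved the median of all genes to -0.222 and -0.265 in the comparisons between cell types. Without a filter Trmt61a gave -0.01 for diet in CD45lo cells. Without both libraries that stand apart Trmt2a gave 0.0 for diet in CD45hi cells, and between cell types Trmt6 gave 0.04 with CD and 0.17 with WD and Trmt10c 0.16 with CD. Without the 2 libraries farthest from the median of Trmt61a, r with Trmt61a was -0.29 for Trmt5, -0.56 for Trmt10c and -0.06 for Trmt12.

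The replicate numbers did not pair the libraries: correlations of deviations were -0.022 to 0.069 by title number and 0 to 0.069 by file number. With the block by title number Trmt6 and Trmt1 gave -0.04 for diet in CD45hi cells, Trmt6 -0.02 for diet in CD45lo cells and for the interaction, and Trmt1 -0.15 between cell types with WD. With the block by file number Trmt5 gave -0.20 between cell types with CD and Trmt1 -0.44 with WD. Between cell types the median of all genes was 0.036 with CD and 0.0 with WD in the fit reported, -0.107 and -0.128 with the block by title number, and -0.215 and -0.249 with that by file number.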
